A study of Rattus norvegicus with 48 samples.

Results

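Among the 32662 genes listed for rat liver, 66 had strongly reduced RNA levels in animals on a choline-deficient diet at both 8 and 12 weeks. These 66 genes were chosen by their measured values. First, 7991 genes with a mean of at least 5 CPM (gene counts scaled to sum to 1000000 in each animal) in each of the 3 control groups were kept. For each gene the mean log2(CPM + 1) of the 8 control animals was then subtracted from that of the 8 animals on the deficient diet of the same week. This difference is called D4, D8 or D12 by week, and genes with D8 and D12 both at or under -1.5 were taken. In all, 67 genes passed, 1 of which was left out by name in the rule. The 66 genes are 0.826% of the 7991. The number depends on the scaling, since the same rule took 216 genes, these 66 among them, when library sizes were scaled for composition by TMM factors. A further 96 genes passed the threshold at week 8 alone and 28 at week 12 alone. Since the values of weeks 8 and 12 chose the genes, they are described here without a test. The diet contrast at week 4 is the one that was tested. It took no part in the formula of the rule, apart from the CPM floor on the control animals of that week. The rule was itself set with earlier results of these data known. The fit of the week 4 contrast shares the estimate of the spread with the animals of weeks 8 and 12.

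The samples were livers of 48 male Wistar rats, obtained at 6 weeks of age and then kept on diet for 4, 8 or 12 weeks, with 8 animals per diet and week. Animals of the deficient groups received an L-amino acid-defined diet without choline and with 1% cholesterol (CDAA, written CDDA in the labels), with 31% of the energy from fat, 11% from protein and 58% from carbohydrate, and 0.17% methionine. Control animals of the same weeks received a like diet supplemented with choline (CSAA), with 16% of the energy from fat, 12% from protein and 72% from carbohydrate, and 0.4% methionine. The diets thus differ in choline, methionine, cholesterol, fat, protein and carbohydrate together, and the parts of these components cannot be told apart.

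Hepatocytes make up most of the liver mass and transcribe a small set of genes at very high levels, such as those for plasma proteins, for lipid transport and for the metabolism of drugs and steroids. Choline is needed to make phosphatidylcholine, the main phospholipid of the lipoproteins by which the liver exports fat. Diets without it lead in rodents to fat accumulation, inflammation and fibrosis, and several other cell types then add their RNA to that of the hepatocytes. In RNA of whole liver, fewer hepatocytes and less RNA per hepatocyte cannot be told apart. The deposited tables list genes by Ensembl identifier alone, and 0 entries of the RefSeq gene table at hand carry such an identifier. The genes are therefore given by identifier, their functions are not stated, and the tissue label could not be checked against marker genes.

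The libraries held 13619274 to 22284359 reads on genes (median 18614479). Some libraries stood apart from their groups, animal 303 at week 4 above all. This liver, labeled CDAA week 4, had 21836816 reads on genes and a TMM factor (edgeR's scaling for library composition) of 0.827, which lies within the range of 0.759 to 0.857 of the CSAA animals of that week and below the 1.04 to 1.17 of the other 7 CDAA animals. It is kept under its label. Whether the label is right and whether the animal responded to the diet was not tested, so every CDAA mean and fold change of week 4 depends on its inclusion. Animal 504 of CSAA week 8 had a TMM factor of 1.01, where the other 7 of its group had 0.779 to 0.876. Animals 704 of CDAA week 8 and 1102 of CDAA week 12 had the highest levels of the 66 genes in their groups.

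The 66 genes took a sizeable share of all reads on genes in CSAA livers and far less in CDAA livers. At week 4 their summed share was 5.26 ± 0.617% (SD, n = 8) on CSAA, between 4.35% and 6.18%. On CDAA it was 1.74 ± 1.04% (SD, n = 8), between 1.19% and 4.27%, and the highest value was that of animal 303. Without this animal the CDAA share was 1.38 ± 0.196% (SD, n = 7), at most 1.78%, and all 7 other animals were below all CSAA animals by a wide margin. At week 8 the CSAA share was 5.52 ± 0.607% (SD, n = 8), and the CDAA share was 1.01 ± 0.222% (SD, n = 8). At week 12 the CSAA share was 4.72 ± 0.370% (SD, n = 8), and the CDAA share was 0.829 ± 0.157% (SD, n = 8). The groups did not overlap at either of these weeks, which the choice of the genes by these values makes likely. Within CSAA week 8, animal 504 was lowest with 4.39%, and the mean without it was 5.68 ± 0.435% (SD, n = 7). Within CDAA week 8, animal 704 was highest with 1.49%, where the other 7 reached 1.09% at most and had a mean of 0.944 ± 0.118% (SD, n = 7). Within CDAA week 12, animal 1102 was highest with 1.20%, where the other 7 lay between 0.702% and 0.871% with a mean of 0.777 ± 0.0575% (SD, n = 7).

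**Figure D1:**
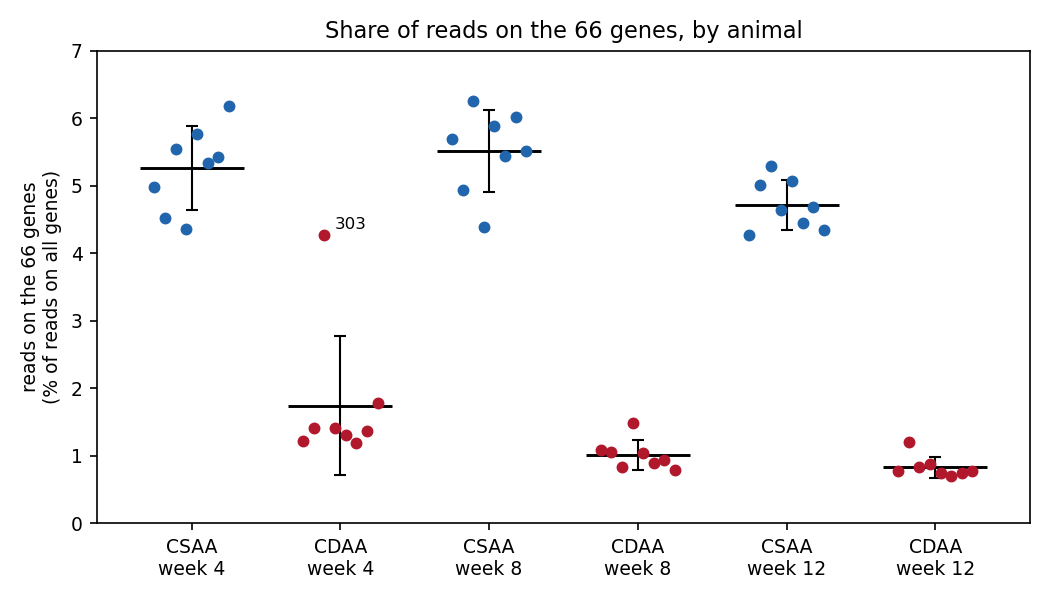
Summed reads on the 66 genes as a percent of the reads on all genes (y axis, linear) in each of 48 livers by diet and week (x axis), with 8 points per group. Lines and bars give the mean and SD. The CDAA animals lie below all CSAA animals of their week, at week 4 with animal 303 at 4.27% just under the lowest CSAA animal at 4.35%.

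The genes were abundant in control liver. Their mean CPM over the 24 CSAA animals ran from 9.55 to 4470, with a median of 238, where the median of the 7991 genes was 23.7. In 41 of the 66 it was at least 100 and in 19 at least 1000, and 10 were below 20. Per length, in reads scaled to gene length and to all reads on genes (RPKM), 20 of the 100 genes with the highest mean level in CSAA liver were among the 66, as were 32 of the 500 highest. ENSRNOG00000006675 ranked at place 7 of all genes with a mean RPKM of 9189, and ENSRNOG00000047503 at place 11 with 8162. ENSRNOG00000050595 followed at place 28 with 3694 and ENSRNOG00000050232 at place 29 with 3573. The 10 genes with the most reads held 56% of the CSAA reads on all 66.

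The lengths of the genes, taken as the ratio of counts to RPKM, were short. Their median was 1373 bases (255 to 9142), against 2269 bases over the 7991 genes. Of the 66, 51 were shorter than this median. Lengths under 1000 bases were found in 20 of the 66 (30.3%) and in 8.99% of the 7991 genes. The 66 genes also had higher levels than the 7991, and the part of the level in the difference of length was not tested.

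Across the 66 genes D8 ran from -6.45 to -1.53 with a median of -2.57, and D12 from -6.06 to -1.51 with a median of -2.39. The medians of all 7991 genes were 0.40 and 0.48, so that on this scale the typical gene was somewhat higher on CDAA. In CPM, the CDAA mean was a median of 15.3% of the CSAA mean at week 8 and 16.0% at week 12. Less than 10% was left in 23 genes at week 8 and in 22 at week 12. The map of levels in each liver shows the CDAA animals of these weeks below the CSAA animals in nearly every gene. All 8 CDAA values lay below all 8 CSAA values in 59 of the 66 genes at week 8, where 8.95% of the 12756 genes tested did so, and in 59 at week 12, where 4.22% did so. These contrasts chose the genes, so nothing is read from the counts.

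**Figure D2:**
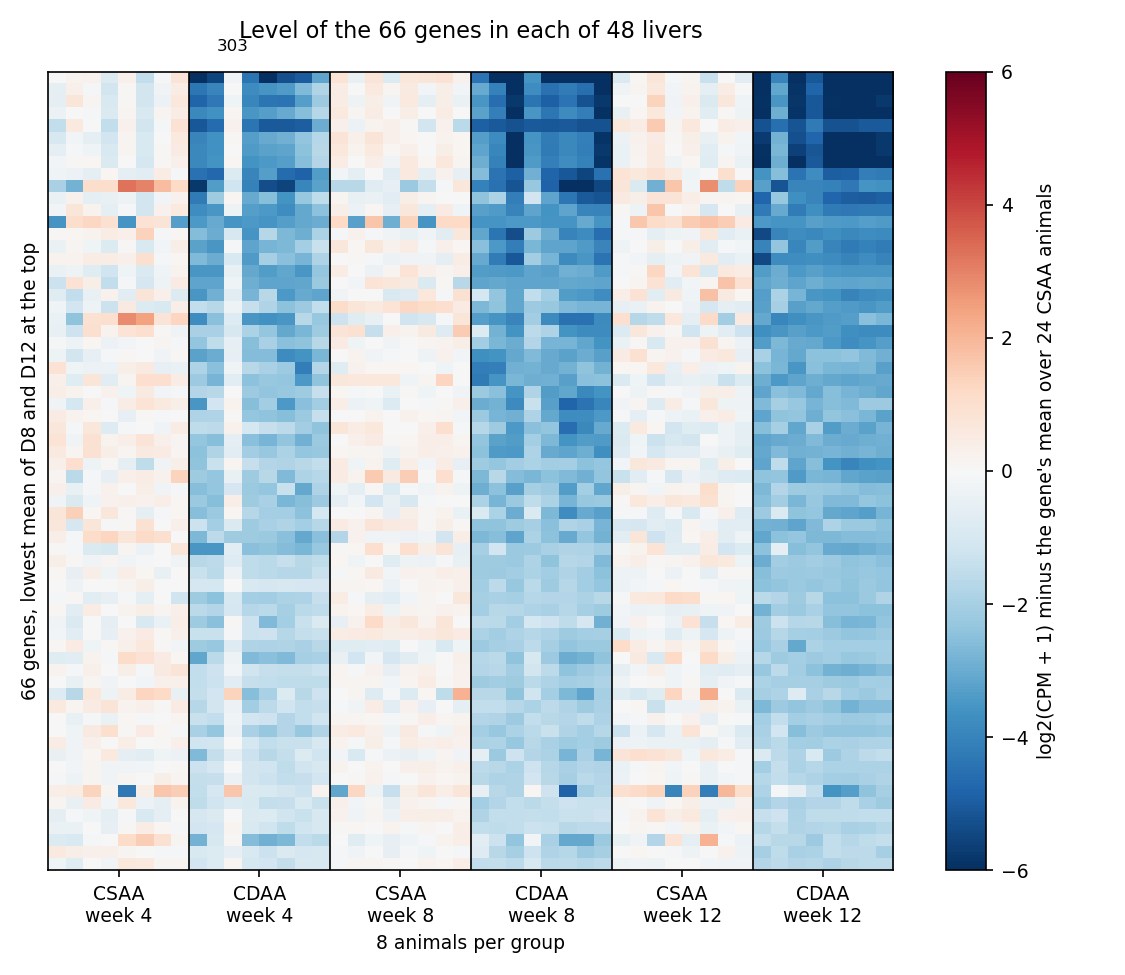
Level of the 66 genes (rows, lowest mean of D8 and D12 at the top) in each of 48 livers (columns, 8 per group), as log2(CPM + 1) minus the gene's mean over the 24 CSAA animals, from -6 (dark blue) to 6 (dark red). The CDAA columns are blue in nearly every row, while the column of animal 303 looks like the CSAA columns beside it.

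A group of 8 genes stood at the bottom of the range, with D8 between -6.45 and -4.54 and D12 between -6.06 and -5.49. The next lowest values among the other genes were -4.14 for D8 and -4.69 for D12. These 8 were set apart after their values were seen. In CPM, between 0.274% and 5.14% of the CSAA mean was left in them at week 8 and between 0.435% and 3.14% at week 12.

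ENSRNOG00000043131 had the lowest D8 and D12 of all 66 genes. On CSAA its CPM had a lowest, median and highest value of 733, 2122 and 2354 at week 8 and of 516, 1267 and 2118 at week 12. On CDAA the values were 4.47, 14.3 and 112 at week 8 and 4.57, 12.1 and 83.8 at week 12. The diets did not overlap at either week, and even the highest CDAA animals were several-fold below the lowest CSAA animals. At week 4 its CPM on CSAA was 466, 1423 and 2206, and on CDAA 8.28, 36.7 and 1121. Animal 303 held this highest value, and the other 7 CDAA animals reached 143 at most, below all CSAA animals.

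ENSRNOG00000033415 was nearly without reads on CDAA. At week 8 its lowest, median and highest CPM were 11.1, 40.6 and 45.8 on CSAA and 0, 0.115 and 0.239 on CDAA. At week 12 they were 36.2, 50.2 and 111 on CSAA and 0, 0.0946 and 0.987 on CDAA. No CDAA animal of these weeks came near the CSAA range. At week 4 animal 303 had 43.2 CPM, amid the CSAA values of 12.6 to 68.4, while the other 7 CDAA animals had at most 3.78. Across the 66 genes, 8 had 0 reads in at least 1 CDAA animal.

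The other 6 of the 8 lowest genes belong to a set of 7 that varied together, described further on. The most abundant of them was ENSRNOG00000050595. Its lowest, median and highest CPM were 2744, 3338 and 4127 on CSAA and 30.1, 160 and 295 on CDAA at week 8. At week 12 they were 1772, 2678 and 4247 on CSAA and 21.1, 39.3 and 363 on CDAA. The diets did not overlap at either week, while the ranges of weeks 8 and 12 overlapped within each diet. The CDAA range of week 12 was stretched by its highest value of 363, far above the median of 39.3. On CDAA the mean log2(CPM + 1) of this gene changed by -1.38 between these weeks. This was the lowest such step of the 66 genes.

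The 2 genes with the highest RPKM kept a larger part of their level than the median of the 66 at both weeks, unlike ENSRNOG00000050595. ENSRNOG00000006675, the first of these, had a lowest, median and highest CPM of 3574, 5014 and 6020 on CSAA and 982, 1168 and 1381 on CDAA at week 8. At week 12 the values were 3159, 3585 and 4396 on CSAA and 615, 854 and 1146 on CDAA, so that 24.1% and 24.2% of the mean was left at these weeks. ENSRNOG00000047503 had 2777, 3261 and 4021 CPM on CSAA and 1010, 1145 and 1389 CPM on CDAA at week 12, with 35.1% left, the highest percentage of the 66 at that week. Neither gene overlapped between the diets at weeks 8 and 12.

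The genes next to the threshold had similar values on both its sides. Just inside lay ENSRNOG00000001517 and ENSRNOG00000047503, both with a D12 of -1.51, and ENSRNOG00000032805 with a D8 of -1.53. Just outside lay ENSRNOG00000000850 with a D12 of -1.497, and ENSRNOG00000000158 and ENSRNOG00000007410, both with a D12 of -1.49. The last of these had a D4 of -2.01, lower than that of all 3 genes just inside.

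In the typical gene of the 66, most of the difference between the diets was in place by week 4. D4 was below 0 in all 66 genes and ran from -4.88 to -0.50 with a median of -2.04, against a median of 0.25 over the 7991 genes. In 43 of the 66 genes D4 was itself at or under -1.5, which held for 0.813% of the 7991. Without animal 303 the median D4 was -2.28 and 51 genes were at or under -1.5. D4 amounted to a median of 69.4% of the mean of D8 and D12, with a range of 29.9% to 134%. Without animal 303 the median was 76.9%, and in 10 genes D4 was at least as large as the mean of the later weeks. D4 was under 50% of that mean in 8 genes, or in 3 without animal 303. Among the 8 genes at the bottom of the range, set apart above, D4 was 43.4% to 62.3% of the mean of D8 and D12 in 6. These 6 lay below the median of the 66, with and without animal 303. In ENSRNOG00000043131 and ENSRNOG00000033415 it was 73.2% and 71.2%, or 83.4% and 82.8% without animal 303, above the medians. With animal 303 included, 13.7% to 30.1% of the CSAA mean was left in the 8 genes at week 4, against 0.435% to 3.14% at week 12. The week 4 percentages depend on this animal. Without it, the CDAA means of the 2 genes named here were 46.1 and 0.82 CPM at week 4, against CSAA means of 1319 and 35.1 CPM.

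The courses over time differed among the genes. D12 was the lowest of the 3 values in 38 genes, D8 in 22 and D4 in 6, and 34 genes had lower values at each later week. Within the CDAA groups the mean log2(CPM + 1) was lower at week 8 than at week 4 in 62 genes, with a median step of -0.67, or in 58 genes with a median step of -0.49 without animal 303. From week 8 to week 12 it was lower in 46 genes, with a median step of -0.19. On CSAA the same steps had medians of 0.08 and -0.11. These steps compare different animals of each week and were not tested. The courses rest on column totals and were not repeated with TMM factors. Mean TMM factors at weeks 4, 8 and 12 were 1.07, 1.29 and 1.37 on CDAA, and 0.808, 0.848 and 0.777 on CSAA.

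**Figure D3:**
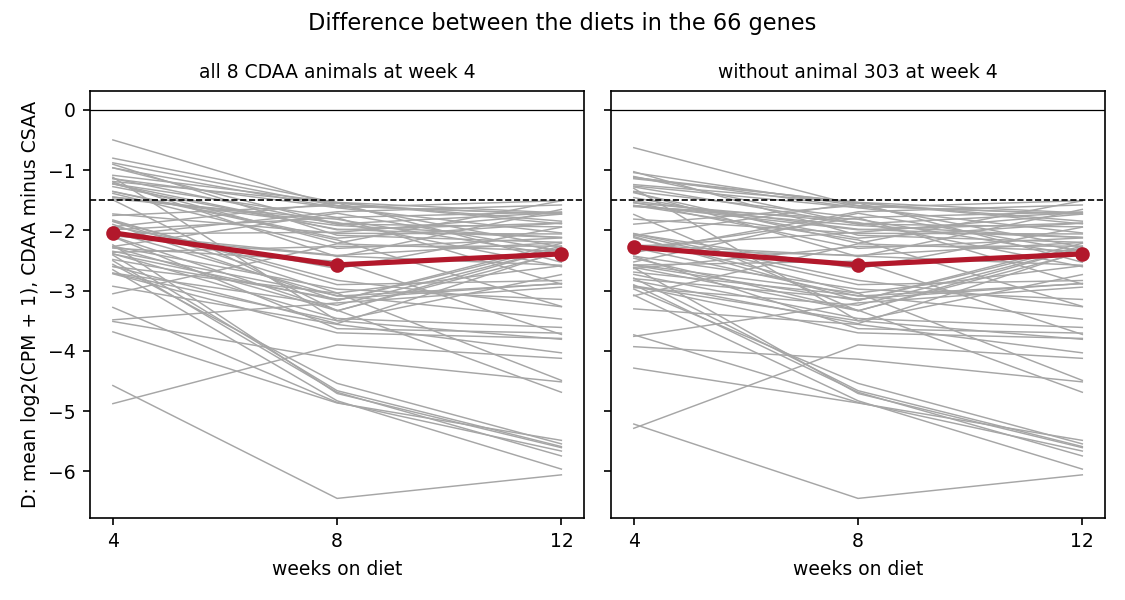
D of each of the 66 genes (grey lines) and their median (red) at 4, 8 and 12 weeks, as mean log2(CPM + 1) on CDAA minus that on CSAA, with all 8 CDAA animals at week 4 (left) and without animal 303 (right). The dashed line marks -1.5, the threshold applied at weeks 8 and 12, and the median moves from -2.04 or -2.28 at week 4 to -2.57 and -2.39 at the later weeks.

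The following genes are examples of different courses. In ENSRNOG00000005861 the difference was small at week 4 and larger later. Its lowest, median and highest CPM at week 4 were 424, 616 and 810 on CSAA and 321, 428 and 825 on CDAA, with animal 303 highest and the other 7 CDAA animals at up to 450, inside the CSAA range. At week 12 they were 541, 971 and 1415 on CSAA and 223, 286 and 335 on CDAA, with no overlap. In ENSRNOG00000022268 it was largest at week 4, with a D4 of -4.88, or -5.29 without animal 303, against a D8 of -3.90 and a D12 of -4.12. This gene also moved most on CSAA, where its mean CPM was 605 ± 602 (SD, n = 8), 108 ± 80.9 and 352 ± 392 at weeks 4, 8 and 12.

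The test at week 4 found nearly all of the genes lower on CDAA. In edgeR's quasi-likelihood test on the counts of all 48 animals, 63 of the 66 genes passed an adjusted p under 0.01 with a log2 fold change of -1 or lower. This is 95.5% of the 66, where 4.27% of the 12756 genes tested were called lower, or 4.83% of the 7991 genes with the minimum level on CSAA. None of the 66 was called higher. The log2 fold changes ran from -6.62 to -0.82 with a median of -2.13, while the median of all genes tested was -0.02. The standard errors ran from 0.15 to 1.00 with a median of 0.34.

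Without animal 303 all 66 genes were called lower, beside 5.97% of the genes tested. The median log2 fold change moved to -2.77, with a range of -6.54 to -1.10, and was lower than before in 65 of the 66 genes. The standard error was smaller in 60. Animal 303 was the highest CDAA animal of week 4 in 64 of the 66 genes, so leaving it out lowers the CDAA levels by itself. The values without it show its weight and are no separate support. All 66 genes passed the filter of the test on low counts. Of these, 61 did so in the CDAA animals of week 4 as well, of which 58 were called, and 5 only through CSAA animals, which had to differ to be tested at all and were all called. With column totals in place of TMM factors, the median of all genes tested moved from -0.02 to 0.39, and 59 of the 66 genes were called. Over all genes the split of the calls then moved from 545 lower and 1998 higher to 246 lower and 2967 higher.

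**Figure D4:**
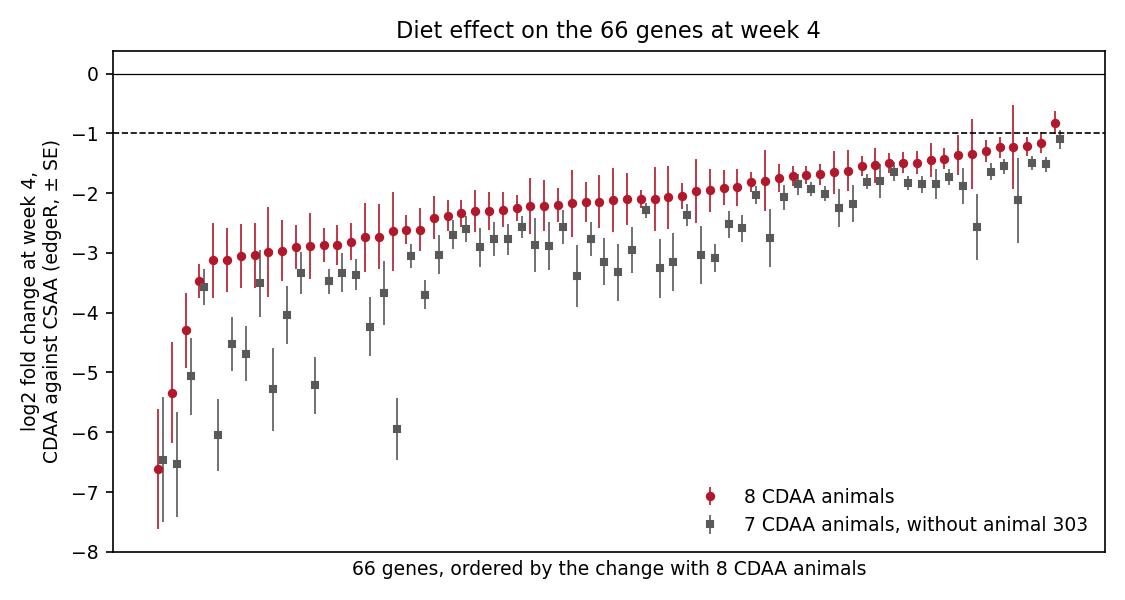
Log2 fold change of the 66 genes at week 4, CDAA against CSAA, from edgeR, with all 8 CDAA animals (red circles) and without animal 303 (grey squares). Bars give the standard error derived from the fold change and the F value. Genes are ordered along the x axis by the first value. The dashed line marks -1, and without animal 303 the median moves from -2.13 to -2.77.

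Counting animals shows how much 1 liver weighed. With all animals, the 8 CDAA values of week 4 lay below the 8 CSAA values in 18 of the 66 genes, where 1.7% of all genes tested did so. Without animal 303 this held for 59 of the 66, beside 3.63% of all genes. Animal 303 was the highest of the CDAA animals in 64 genes and lay within or above the CSAA range in 48. Its summed share of 4.27% was still below the lowest CSAA animal.

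The genes called with the lowest log2 fold changes at week 4 had very different patterns among animals. The lowest, ENSRNOG00000030868, is described further on. Next were ENSRNOG00000022268 with -5.34 (SE 0.85, edgeR adjusted p = 5.91e-07) and ENSRNOG00000022296 with -4.30 (SE 0.62, edgeR adjusted p = 8.48e-08). Their CSAA means were 605 ± 602 and 61.5 ± 54.5 CPM (SD, n = 8). The diets overlapped in both, in the first through animal 303 alone. ENSRNOG00000017601 had a lowest, median and highest CPM of 268, 513 and 704 on CSAA and 32.5, 54.8 and 96.3 on CDAA. Its log2 fold change was -3.47 (SE 0.29, edgeR adjusted p = 3.3e-13), the groups did not overlap, and animal 303 was unremarkable with 64.5 CPM. Without this animal the log2 fold change was -3.56. ENSRNOG00000014555 had 67.7, 89.8 and 148 CPM on CSAA and 2.87, 5.09 and 61.5 CPM on CDAA, and fell by 3.12 on the log2 scale (SE 0.53, edgeR adjusted p = 2.06e-06). Here animal 303 alone stood high, the other 7 CDAA animals reached 10.3 CPM at most, and without it the log2 fold change was -4.53.

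Of the most abundant genes, ENSRNOG00000006675 had a lowest, median and highest CPM of 2764, 4983 and 5927 on CSAA and 1103, 1417 and 2173 on CDAA at week 4. Its log2 fold change was -2.10 (SE 0.15, edgeR adjusted p = 1.36e-14), or -2.29 without animal 303, and all CDAA animals were below all CSAA animals, 303 included. ENSRNOG00000050232 had 3360, 4296 and 6302 CPM on CSAA and 1312, 1460 and 3209 CPM on CDAA, and fell by 1.75 on the log2 scale (SE 0.23, edgeR adjusted p = 1.67e-08). The groups did not overlap, although animal 303 came close to the lowest CSAA animal, and without it the log2 fold change was -2.07. ENSRNOG00000047503 had 3707, 4883 and 5863 CPM on CSAA and 1526, 1927 and 4295 CPM on CDAA, and fell by 1.49 (SE 0.17, edgeR adjusted p = 8.42e-10). Animal 303 was inside the CSAA range for this gene and the other 7 CDAA animals were below it. The log2 fold change without animal 303 was -1.83.

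The other 3 genes missed a threshold at week 4. ENSRNOG00000005861 passed the adjusted p (edgeR adjusted p = 0.000187) but not the fold, with a log2 fold change of -0.82 (SE 0.19). Without animal 303 it was -1.10 (SE 0.16). ENSRNOG00000027024 had a log2 fold change of -1.34 (SE 0.59, edgeR adjusted p = 0.0419), or -2.57 (SE 0.56) without animal 303. ENSRNOG00000032871 had one of -1.23 (SE 0.70, edgeR adjusted p = 0.122), or -2.12 (SE 0.71) without animal 303. In all 3, the edgeR adjusted p without animal 303 was under 0.01, at 5.66e-08, 8.91e-05 and 0.00799.

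In 2 of the 66 genes some control livers had almost no reads. In ENSRNOG00000030868, 3 of the 8 CSAA animals at week 4 had between 0 and 0.147 CPM and the other 5 between 18.4 and 26.0. At week 8 it was again 3 of 8, with at most 0.505 CPM, and the other 5 lay between 24.2 and 35.7. At week 12 none of the 8 was low, and the values ran from 9.76 to 35.9. All 24 CDAA animals were low in this gene, with at most 0.458, 0.394 and 0.185 CPM at weeks 4, 8 and 12. The CDAA values thus lay in the range of the low control livers, and animal 303 had 0 reads of this gene. The log2 fold change at week 4 was -6.62 (SE 1.00, edgeR adjusted p = 2.18e-07), and -6.46 without animal 303, whereas limma-voom gave -4.43 with an adjusted p of 0.179. This gene is 1 of the 5 that passed the filter of the test only through CSAA animals and so had to differ, which leaves its p without weight.

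ENSRNOG00000032871 split the control livers in a similar way. At week 4, 1 CSAA animal had 0.444 CPM and the other 7 had between 31.4 and 90.6. At week 8, 1 animal had 2.26 CPM and the others 10.0 to 65.9, and at week 12, 2 animals had 0.636 and 0.851 CPM and the others 54.5 to 112. On CDAA the lowest, median and highest CPM were 9.12, 13.5 and 89.8 at week 4, the highest in animal 303, and 1.35, 6.63 and 24.97 at week 12. At each week the diets overlapped, with the low CSAA livers below most or all CDAA livers. Under a bar of less than 10% of the median of their group, set after the values were seen, CSAA animals were found this low in only 4 of the 66 genes, these and the pair of ENSRNOG00000022268 and ENSRNOG00000022296, with 1 animal each at week 4.

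The genes varied more between animals of a group than genes did in general. The median within-group SD of log2(CPM + 1) over the 66 genes was 0.45, 0.32 and 0.41 on CSAA at weeks 4, 8 and 12, against 0.21, 0.19 and 0.22 over the 7991 genes. On CDAA it was 0.78, 0.51 and 0.34, against 0.21, 0.14 and 0.13. Without animal 303 the first of these was 0.43.

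To see which genes varied together, the deviations of each animal from its group mean were correlated between genes over 47 animals, without animal 303. Over the 2145 pairs of the 66 genes the median r was 0.19, and with animal 303 it was 0.38. Among the 24 CSAA animals alone it was 0.08. The points share libraries and depth, and the values are given as a description. At an r of at least 0.9, 13 of the 66 genes were joined into a set of 7 genes and 3 pairs.

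The set of 7 was formed by ENSRNOG00000009273, ENSRNOG00000050117, ENSRNOG00000050499, ENSRNOG00000050595, ENSRNOG00000050682, ENSRNOG00000051118 and ENSRNOG00000051227. Their pairwise r was 0.82 to 0.99 over the 47 animals and 0.70 to 0.98 over the 24 CSAA animals. Their lengths lay between 270 and 1001 bases. The closest pair was ENSRNOG00000050595 and ENSRNOG00000051227, with an r of 0.99 and a count ratio between 2.78 and 3.94 (median 3.37) in all 48 animals, while the CPM of the first ranged from 21.1 to 4247 at week 12. Whether reads are shared between near-identical copies among these genes was not tested, and their separate levels are uncertain to that extent.

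The summed share of the 7 genes in CSAA livers was 0.664 ± 0.219% (SD, n = 8) at week 4, then 0.889 ± 0.153% and 0.752 ± 0.203% at weeks 8 and 12. On CDAA the lowest, median and highest share was 0.0451%, 0.0752% and 0.769% at week 4, 0.00826%, 0.0412% and 0.0841% at week 8, and 0.00566%, 0.00996% and 0.0937% at week 12. Animal 303 held the highest value at week 4, inside the CSAA range of 0.374% to 1.00%, and the next CDAA animal had 0.219%. At weeks 8 and 12 every CDAA animal was below every CSAA animal. The CDAA animals also differed strongly among themselves, with animals 703 and 708 lowest at week 8 and animal 1102 highest at week 12, where the next animal had 0.0228%.

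**Figure D5:**
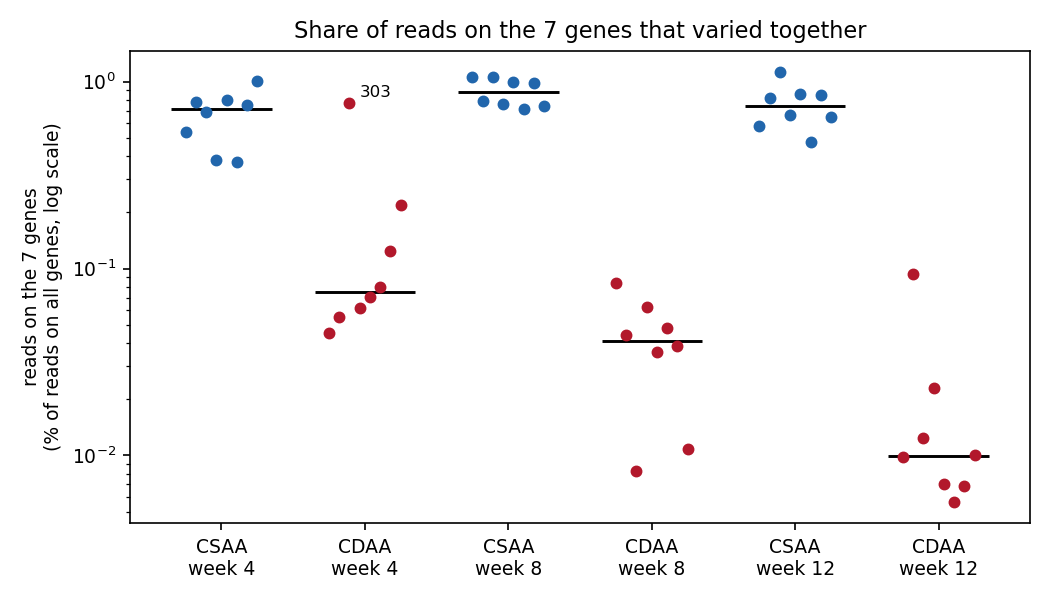
Summed reads on the 7 genes that varied together, as a percent of the reads on all genes (y axis, log scale), in each of 48 livers by diet and week (x axis). Lines give group medians, and animal 303 with 0.769% lies amid the CSAA animals, while the CDAA medians are 0.0752%, 0.0412% and 0.00996% at weeks 4, 8 and 12.

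The 3 pairs had other courses. ENSRNOG00000021405 and ENSRNOG00000059330 had an r of 0.98 and a count ratio of 1.65 to 2.67 in all 48 animals. The first had 1121, 1623 and 2834 CPM (lowest, median and highest) on CSAA and 43.4, 121 and 390 CPM on CDAA at week 8, without overlap. At week 4 it fell by 2.90 on the log2 scale (SE 0.37, edgeR adjusted p = 4.69e-09), or by 3.34 without animal 303. ENSRNOG00000022268 and ENSRNOG00000022296 had an r of 0.92, and both had their highest CSAA mean at week 4 and their lowest at week 8. ENSRNOG00000016924 and ENSRNOG00000045636 had an r of 0.91, and in both D4 was lower than the mean of D8 and D12, with -2.27 and -2.09 at week 4, or -2.52 and -2.37 without animal 303. The diets overlapped at week 8 in both genes of this pair.

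The 3 named animals with high shares differed in which genes they kept. In animal 303 the share of the 7 genes was 0.769%, like that of a CSAA liver. In animal 704 it was 0.0622%, within the range of the other CDAA animals of week 8, although its share of all 66 genes was the highest of that group. In animal 1102 both shares were the highest of their group.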

How the data were processed

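The authors mapped single-end reads with STAR to the genome build Rnor_6.0 and deposited raw counts per gene. RPKM values, scaled by the authors to gene length and reads on genes, were deposited with them. They gave lengths and levels per length here. In 2 of the 66 genes RPKM and CPM were not in a fixed ratio across animals (over 5% apart). Each column was assigned to an animal by its name. At 13619274 to 22284359 reads on genes per animal, the spread between animals limits precision for all but the lowest levels, and p-values treat the animals as replicates.

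The 66 genes and the lists were chosen with earlier results of these data known. For the week 4 contrast, the quasi-likelihood test of edgeR 4.0.16 (R 4.3.3, TMM factors) was run on the 48 animals in 1 fit with a coefficient for each of 6 groups, over the 12756 genes that reached 1 CPM in 5 or more animals of any group. Calls needed a Benjamini-Hochberg adjusted p under 0.01 and a log2 fold change of 1 or more in size, as in the paper. limma-voom (limma 3.58.1), the method of the paper, and DESeq2 1.42.0 were alternatives, beside other scalings, filters, tables and left out animals. Code was tested on simulated counts.

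Named were the genes with the lowest mean of D8 and D12, the highest CSAA level, the lowest called and the highest week 4 fold change, and those next to the threshold. The rule also asked for gene symbols, which the tables do not pair with identifiers, so this condition was dropped and marker lists, gene lists, promoters and sequences were not analysed here. ENSRNOG00000027024, ENSRNOG00000050682, ENSRNOG00000059330, ENSRNOG00000016924 and ENSRNOG00000045636 were named after their values were seen.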

Additional observations from a re-analysis of the deposited data

Results flagged for a closer look

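Each value below lay so far from the nearest of the other animals of its group of 8 that the gap, as a part of the whole range, exceeded Dixon's critical value. Of 74 sets of 8 values examined, 33 had such a value. For separate sets of normally distributed values, chance would give about 1 in 20, or 3.7. The sets examined are not separate, since they share animals and genes chosen together, and most of the flagged values come from the same liver. The count of 33 is therefore a description and is not read against chance.

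Animal 303 of CDAA week 4 gave 29 of the 33 values. Its share of reads on the 66 genes was 4.27%, and the median of its log2 levels relative to the CSAA mean of week 4 was -0.24, both far above the other 7 CDAA animals. Single genes were high in it by the same measure, 27 in number. In CPM, its values were 1121 in ENSRNOG00000043131, 2203 in ENSRNOG00000009273, 79.6 in ENSRNOG00000051118, 3005 in ENSRNOG00000050595, 43.2 in ENSRNOG00000033415, 405 in ENSRNOG00000050499, 820 in ENSRNOG00000051227, 1158 in ENSRNOG00000050117 and 61.5 in ENSRNOG00000014555. They were 75.3 in ENSRNOG00000022268, 2173 in ENSRNOG00000006675, 4295 in ENSRNOG00000047503, 3209 in ENSRNOG00000050232, 2917 in ENSRNOG00000001957, 2289 in ENSRNOG00000052810, 1605 in ENSRNOG00000008902, 2101 in ENSRNOG00000010079 and 12.8 in ENSRNOG00000022296. For the remaining genes they were 6.69 in ENSRNOG00000051112, 15.0 in ENSRNOG00000047520, 5.86 in ENSRNOG00000054453, 825 in ENSRNOG00000005861, 165 in ENSRNOG00000059519, 388 in ENSRNOG00000002212, 89.8 in ENSRNOG00000032871, 1849 in ENSRNOG00000005437 and 66.6 in ENSRNOG00000001517. The same liver had a TMM factor of 0.827, in the range of the CSAA animals of that week, and the part of library composition in these values was not tested.

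In CDAA week 8, animal 704 had the highest share of reads on the 66 genes, 1.49%. In CDAA week 12, animal 1102 had the highest share, 1.20%, and the highest median level, -2.19 on the log2 scale relative to CSAA week 4. In CSAA week 4, animal 106 had 4710 CPM of ENSRNOG00000021405, where the median of the group was 2011.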

How the results depend on the processing

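The rule for the 66 genes gave 216 genes with TMM-scaled library sizes and 148 with a threshold of -1, and the 66 were among them in both cases. It gave 75 with a pseudocount of 0.1, 74 with a floor of 1 CPM and 62 with RPKM, of which 61 were shared. Leaving out each animal of weeks 8 and 12 in turn gave 64 to 71 genes, and leaving out animals 504, 908 and 1102 together, added after the data were seen, gave 73. Of these animals, 908 of CSAA week 12 did not stand apart in its share of reads on the 66 genes. It had 4.34%, where the others of its group had 4.28% to 5.29%. Animal 704 was kept in this alternative. The number called lower at week 4, 63, was 59 to 66 under all alternatives, with the lowest from column totals and from RPKM, and 66 without animal 303. With the trend of gene length removed, also added later, it was 62. The number of genes without overlap at week 4 was 18 to 59 when each animal was left out, the highest without animal 303. Of 744 values of 31 named genes at week 4 under 24 alternatives, 732 stayed on their side of the thresholds, 10 no longer passed and 2 newly passed, and none changed direction. At 13619274 reads or more on genes, levels below 1 CPM rest on few reads. No paired analysis was possible because each liver came from a different animal and the labels give no pairing between the diets.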
